A study of Raphanus sativus with 9 samples.

Results

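Among the 64657 genes counted in seedlings of the radish (Raphanus sativus) cultivar Taebaek, 112 rose at both steps of a vernalization series, first over the cold treatment and again over the warm growth that followed it. Vernalization is the prolonged cold that many plants of the mustard family need before they flower. The series had 3 groups: NV, non-vernalized plants 4 weeks old (called BV in the study's text); V, plants 8 weeks old after 28 days of cold; and AV, plants 10 weeks old after 28 days of cold and 14 days at warm temperature. The study states 3 biological replicates a group. Leaf and roots were sampled together according to the tissue label, while the extraction protocol names whole seedlings. Age changed with treatment. By the study's methods the cold was given in a cold room with a set photoperiod under sodium light, and warm growth took place in a greenhouse. The effects of age, cold, light, growth site and warm growth therefore cannot be told apart, and neither can the leaf and root parts of a library. In such bulk samples more cells of a type and more RNA per cell also cannot be told apart.

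The 112 genes were selected on their mean level, so their rise is a description and not a finding. Levels were in CPM, a gene's count divided by the library's count over all genes and scaled to a total of 1e+06. The mean of V had to be at least 2 times that of NV, the mean of AV at least 2 times that of V and that of AV at least 2 CPM, with 0.1 CPM added to each mean. A set of 2 identifiers was put aside beforehand. The libraries held 21119531 to 27606212 counts on genes, at which 3 counts correspond to 0.109 to 0.142 CPM. AV replicate 3 was left out because it nearly repeated AV replicate 2: the counts of 376 of the 64657 genes differed between them, 371 of these by 1 or 2 counts. Among the 112 genes RSG15628 alone differed between these libraries, by 1 count. The AV group is therefore 2 libraries here, against 3 for NV and 3 for V.

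In mustard family plants, prolonged cold lowers the activity of the floral repressor FLC through its chromatin, and this state is kept after the return to warm conditions, when flowering can follow. Separately from this memory, plants acclimate to cold through transcription factors of the CBF family and their targets, a response that in general subsides in the warm. By their selection, the genes described here rose over the cold and over the warm growth. The files carry RSG identifiers without gene names. None of the 112 has a name in the sources used here, so no role is given for any of them, and tissue markers could not be checked.

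Together the 112 genes summed to 756, 737 and 767 CPM in NV replicates 1 to 3. They reached 2139, 2099 and 2159 CPM in V and 6109 and 6564 CPM in AV. The replicates of each group lay close to each other and the groups were far apart. As a share of all counts on genes the sum was 0.0737% to 0.0767% in NV, 0.210% to 0.216% in V and 0.611% to 0.656% in AV. A few genes carried much of it, since the 5 highest made up 45.3% of the AV sum and RSG02009 alone 14.6%.

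**Figure D1:**
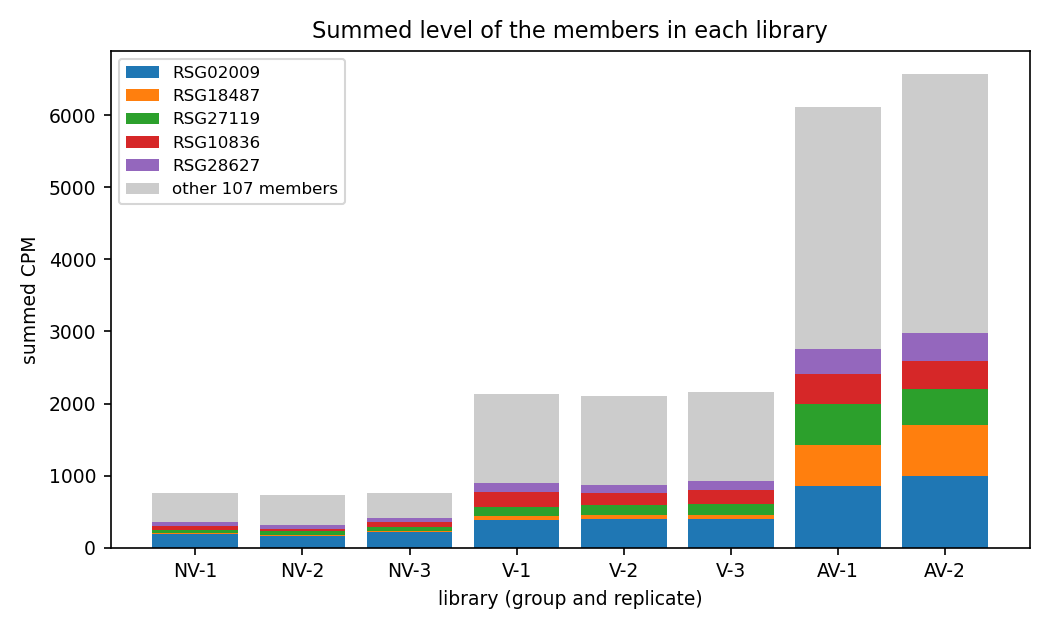
Summed CPM of the 112 genes (vertical axis) in each of the 8 libraries (horizontal axis), with the 5 genes of highest AV level in colours and the other members in grey. The bars stand at 737 to 767 in NV, 2099 to 2159 in V and 6109 to 6564 in AV.

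Most members were of low or moderate level. The median gene was at 1.45 CPM in NV, 5.05 in V and 15.4 in AV. In AV, 26 genes had a mean under 5 CPM, 37 lay between 5 and 20, 36 between 20 and 100, and 13 at 100 CPM or more. Before the cold, 48 of the 112 genes were under 1 CPM and only 19 reached 10 CPM.

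The size of the steps differed between genes. From NV to V the ratio of means with 0.1 CPM added ran from 2.02 to 17.9. Its median was 2.88, and the middle of the distribution (quartiles) spanned 2.31 to 3.82. From V to AV the ratio ran from 2.01 to 53.4 with a median of 2.74 and quartiles of 2.27 and 3.63. The first step was the larger in 56 genes and the second in the other 56. Over both steps the ratio of AV to NV ran from 4.34 to 165 with a median of 8.43. It was at least 8 in 58 genes, at least 16 in 19 and at least 32 in 11. For these counts, 4 genes hardly counted in NV were taken at the ratios to 3 counts given further on (18 instead of 19 with 0.1 CPM added for all). The added 0.1 CPM lowers ratios to very low NV levels, so the largest ratios to NV depend on it. A rise of 4-fold or more was seen in 24 genes at the first step, in 22 at the second and in 7 at both. In 37 genes both ratios were under 3.

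**Figure D2:**
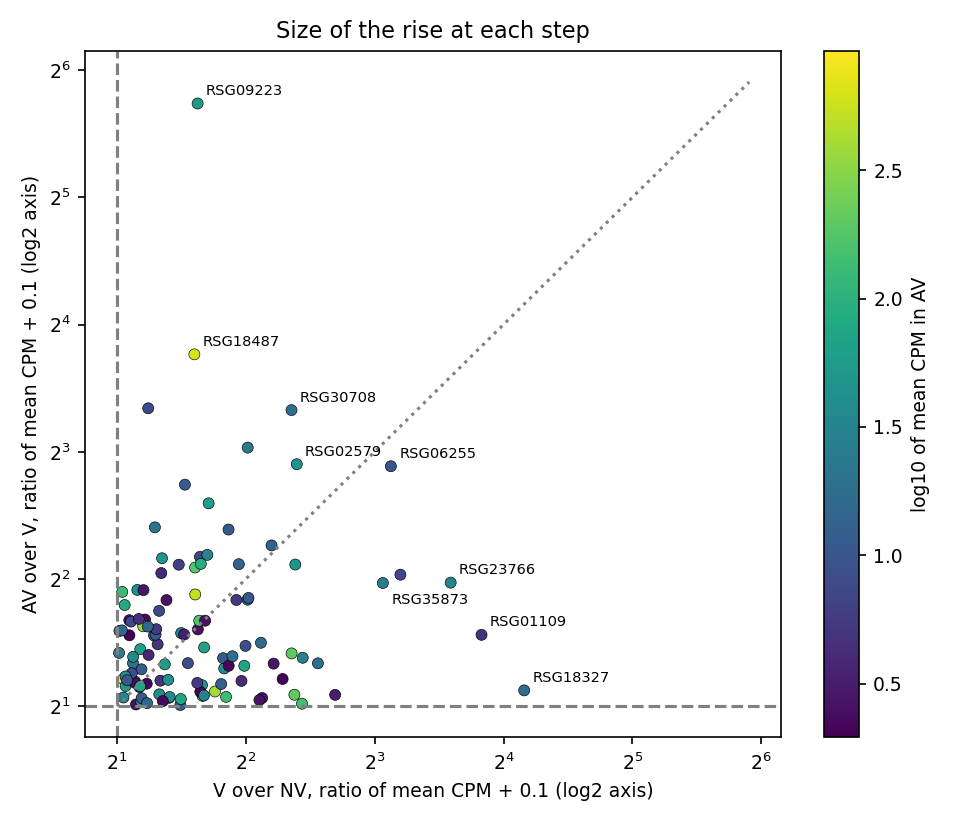
Ratio of mean CPM + 0.1 of V over NV (horizontal, log2 axis) and of AV over V (vertical, log2 axis) for the 112 genes, each point a gene coloured by the log10 of its mean CPM in AV. The dashed lines mark the ratio of 2 that selected the genes and the dotted line equal steps; RSG09223 (53.4 at the second step) and RSG18327 (17.9 at the first) lie farthest out.

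The gene of highest level, RSG02009, was also abundant before the cold. It was at 192, 166 and 219.8 CPM in NV, 392, 397 and 406 in V, and 851 and 998 in AV. Its steps were 2.07 and 2.32, and no library of a later group fell below one of an earlier group. RSG27119 rose by 3.05 and then 3.68 times, from 39.3, 48.3 and 53.7 CPM in NV to 135, 141 and 154 in V and 559 and 498 in AV. RSG10836 showed a wider spread before the cold, at 57.8, 34.4 and 73.0 CPM, and was then measured at 208, 162 and 191 CPM in V and 421 and 389 in AV. Its NV replicate 2 was the lowest of its group and its V replicate 2 likewise. Its larger step was the first, at 3.39 against 2.17.

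RSG18487 joined this group of abundant genes only in AV. Its level was 14.7, 14.4 and 17.4 CPM in NV and 45.5, 53.1 and 43.2 in V, then 580.3 and 709 in AV, the second highest of the 112. The second step, 13.6 times, was well above the first, 3.03 times. It thus went from the level of a moderately expressed gene to one taken by 15124 and 18223 counts in the AV libraries.

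Another 9 genes averaged 100 CPM or more in AV; they are given as group means with SD (n = 3 in NV and V, n = 2 in AV) and were named after their values were seen. RSG01169, RSG28486 and RSG15279 made the larger rise in the cold, by 5.20, 5.12 and 5.41 times. RSG01169 averaged 18.6 ± 1.40 CPM in NV, 96.8 ± 6.60 in V and 206 ± 23.8 in AV. RSG28486 averaged 14.7 ± 2.88, 75.5 ± 5.34 and 202 ± 13.8 CPM, and RSG15279 12.9 ± 1.93, 70.0 ± 7.79 and 142 ± 20.6 CPM. These 3 genes moved between nearly the same levels, and their second steps were 2.13, 2.67 and 2.03 times.

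RSG15202 and RSG05727 made the larger rise in the warm. RSG15202 went from 13.8 ± 2.97 CPM in NV over 42.2 ± 3.05 in V to 179.8 ± 22.2 in AV, steps of 3.05 and 4.26 times. RSG05727 went from 17.1 ± 5.32 over 35.2 ± 3.79 to 132 ± 2.02 CPM, steps of 2.06 and 3.73 times. RSG28627 (51.9 ± 5.09, 119.6 ± 7.55 and 369.9 ± 25.7 CPM) and RSG19838 (17.1 ± 2.73, 53.6 ± 9.13 and 171 ± 8.67 CPM) were more even, with second steps of 3.09 and 3.19 times after first steps of 2.30 and 3.11. RSG15628 was at 18.0 ± 2.79, 65.2 ± 11.9 and 137 ± 18.8 CPM. RSG22414 had the largest ratio of highest to lowest replicate in V among the genes of 100 CPM or more, with 62.8, 96.9 and 58.3 CPM there, 22.5, 30.8 and 15.3 in NV, and 150.3 and 158 in AV. Its replicate 2 was the highest in both NV and V.

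The most one-sided gene of the second step was RSG09223. It held 6, 9 and 1 counts in NV (0.231, 0.424 and 0.0393 CPM) and 25, 27 and 13 counts in V (0.906, 1.28 and 0.585 CPM). In AV it held 1462 and 1360 counts, or 56.1 and 52.9 CPM. The step from V to AV was 53.4 times, the largest of all, and that from NV to V 3.09 times, a ratio of small counts. Its total rise was 165 times with 0.1 CPM added, a size that depends on the few NV counts. RSG30708 had a similar shape at lower level, with 0.192, 0.236 and 0.314 CPM in NV, 1.09, 2.42 and 1.53 in V, and 18.9 and 16.6 in AV. Its steps were 5.12 and 10.04 times. RSG23619, named after its values were seen, rose 10.14 times at the second step to 7.87 and 7.31 CPM in AV, from 0.724, 0.710 and 0.540 in V and 0.307, 0.236 and 0.118 in NV. In all 3 genes the AV libraries differed little from each other and stood far above V.

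Other genes had the larger ratio at the first step, although they gained more CPM at the second. RSG18327 was at 0.769, 0.188 and 0.118 CPM in NV, 6.88, 10.8 and 6.61 in V, and 14.4 and 21.2 in AV. Its first step was 17.9 times with 0.1 CPM added, a ratio to 20, 4 and 3 counts in NV, whereas its second, 2.18 times, was close to the limit that selected the genes. RSG23766 rose 12.04 and then 3.92 times, from 0.423, 0.660 and 0.668 CPM in NV over 7.46, 7.58 and 9.36 in V to 33.8 and 30.6 in AV. RSG35873 rose 8.36 and 3.91 times, from 0.461, 1.08 and 0.629 CPM over 6.45, 7.91 and 6.03 to 29.3 and 24.5. For these genes the V libraries lay above all NV libraries by a wide margin and below both AV libraries.

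**Figure D3:**
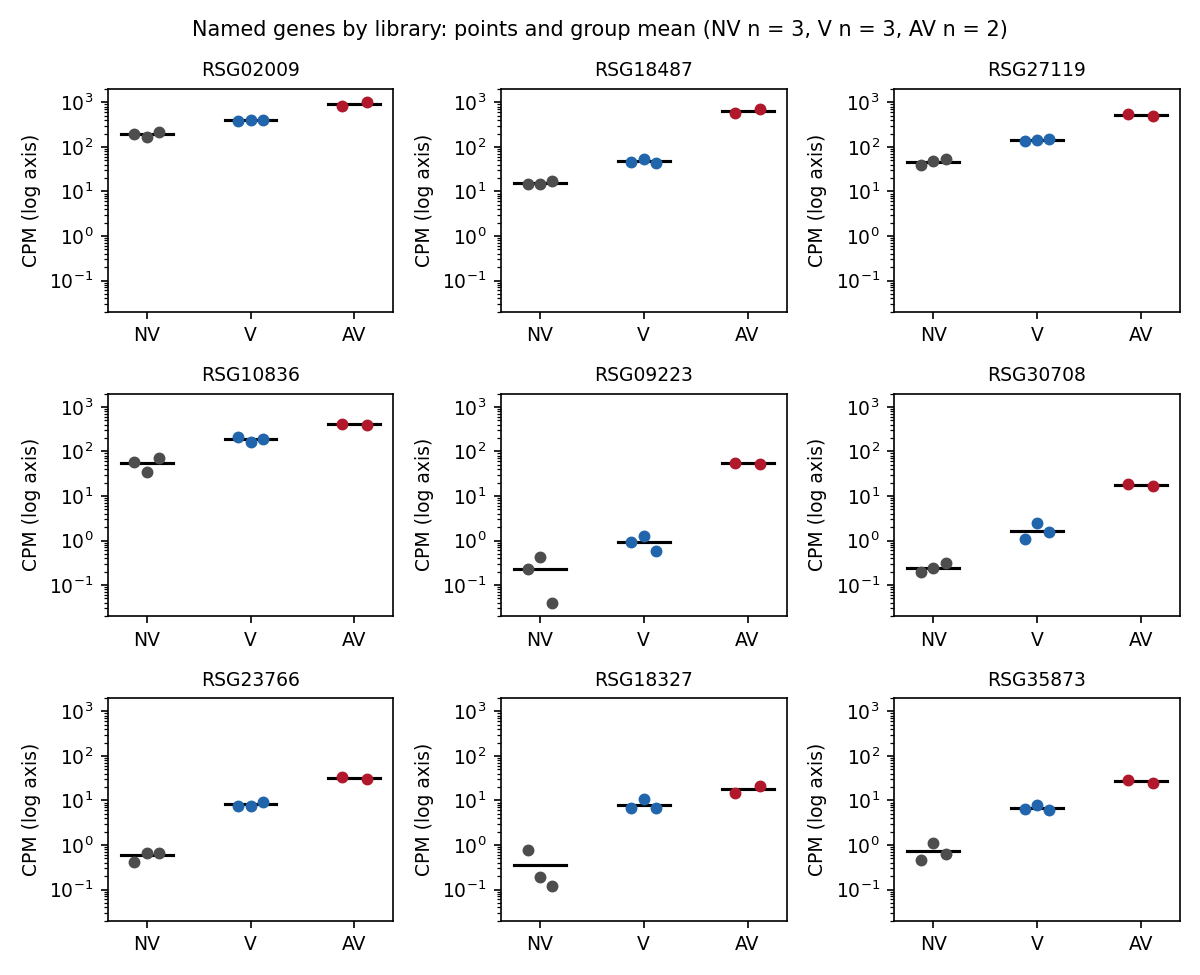
CPM (log axis, the same in each panel) of 9 named genes in each library, as points for NV (n = 3), V (n = 3) and AV (n = 2) with a bar at the group mean. No gene shown has a V library below an NV library or an AV library below a V library; RSG09223 goes from under 1.3 to over 50 CPM at the second step.

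Among the 7 genes with at least 4-fold rises at both steps, RSG32776 and RSG02579 had the highest levels in AV. RSG02579 was at 0.999, 1.32 and 0.904 CPM in NV, 5.94, 6.63 and 5.67 in V, and 37.8 and 54.4 in AV, with steps of 5.26 and 7.48 times. RSG32776 was at 2.77, 1.56 and 2.00 CPM, then 11.2, 10.5 and 12.6, then 51.0 and 48.6, with steps of 5.22 and 4.33 times. Both were named after their values were seen.

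A few genes were practically not detected before the cold. In 4 genes no NV library had more than 3 counts. For these, 3 counts per library stood in for the NV mean, which was lower. The resulting ratios are thus below those of the measured means. They are no lower limits on the true rise, since the error of neither group enters. RSG01109 had 0, 1 and 0 counts in NV and 39, 50 and 19 in V. By this ratio it was 12.4-fold higher in V and 38.1-fold higher in AV. RSG06255 was 9.98-fold higher in V and 78.9-fold higher in AV, where it held 258 and 252 counts. RSG19068 was 13.6-fold and 58.3-fold higher, and RSG01082 6.48-fold and 16.1-fold higher. With these 4 genes at these ratios the medians of the 112 stayed at 2.88 for V over NV and 8.43 for AV over NV.

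In 109 of the 112 genes every V library lay above every NV library and every AV library above every V library. The same order held in 4.38% of the 32043 genes that passed the filter on low counts for testing, but the means that selected the members favour it, so nothing is read from the difference. The other 3 genes, RSG05021, RSG11468 and RSG31641, overlapped between NV and V. RSG11468 had 4.34, 5.89 and 3.69 CPM in NV and 10.6, 5.68 and 12.2 in V, with V replicate 2 below NV replicate 2, and 26.7 and 24.5 in AV. RSG05021 had 0.231, 0.518 and 0.196 CPM in NV and 0.435, 1.52 and 0.675 in V, and RSG31641 0.922, 0.330 and 0.354 in NV and 1.74, 0.900 and 1.35 in V. In both, a single replicate of a low gene made the overlap.

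**Figure D4:**
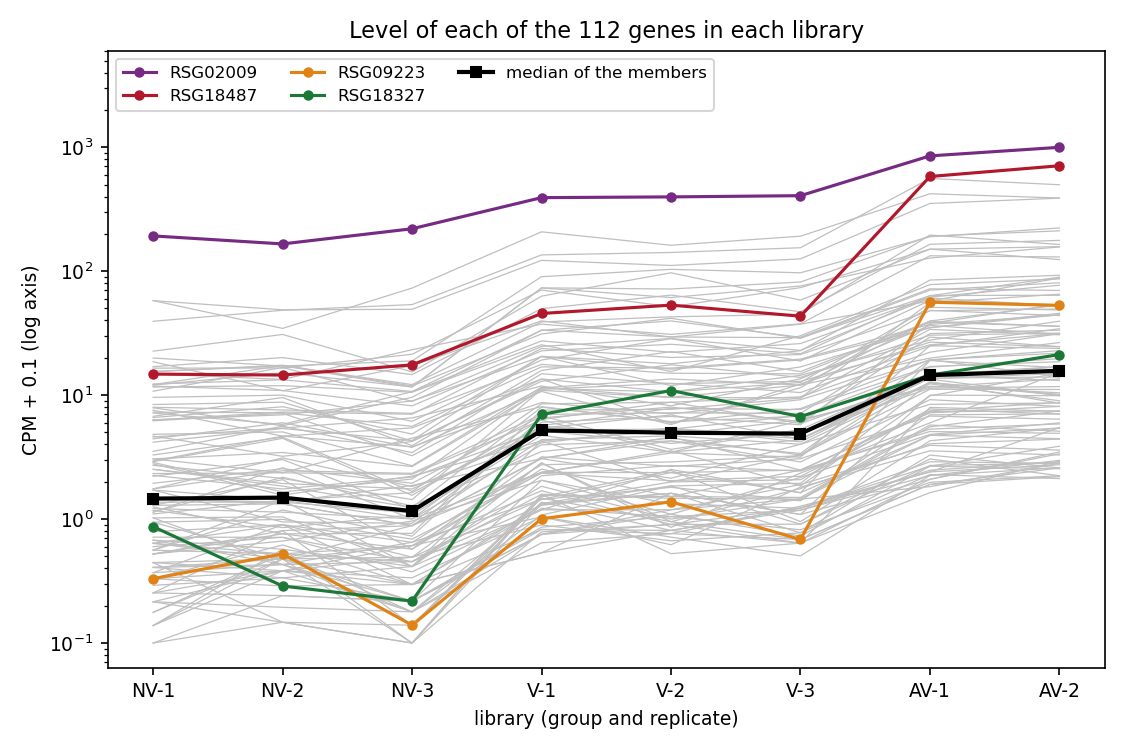
CPM + 0.1 (log axis) of each of the 112 genes (grey lines) in the 8 libraries, with 4 genes in colour and the median of the members in black. Lines join the values of a gene and imply no order among replicates; the levels step up from NV to V and from V to AV, while replicates of a group differ less.

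The spread within groups was widest before the cold. Between the highest and the lowest replicate of a gene (CPM + 0.1) the median ratio was 1.63 in NV, 1.35 in V and 1.14 in AV, the last over 2 libraries only. The selection made NV the lowest group of each member, and counting error widens such ratios at low counts. Nothing is therefore read from this order. RSG14581, RSG57958 and RSG40756 had the widest ratios within NV, each with its highest value in replicate 2. RSG14581 held 4, 15 and 1 counts in NV, 40, 30 and 31 in V, and 147 and 129 in AV. RSG57958 held 1, 10 and 0 counts, then 19, 17 and 18, then 68 and 70. RSG40756 held 2, 8 and 0 counts, then 41, 9 and 12, then 40 and 73, so that its V replicate 1 exceeded its AV replicate 1 in counts but, at 1.49 against 1.53 CPM, not in level. Across the 112 genes NV replicate 2 was above NV replicate 3 in 77. Among the 49 members with at least 2 CPM in NV it was above in 31 (63.3%), beside 54.0% of the 22787 genes with at least 2 CPM in each group. The median ratio of V over NV was 3.17 without NV replicate 2 and 2.68 without NV replicate 3.

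At the edge of the selection, RSG06079 (2.01) and RSG03530 (2.02) were just inside by their smaller step, which for both was that from V to AV. RSG06079 was at 5.14, 5.21 and 6.75 CPM in V and 13.4 and 9.80 in AV. RSG03530 was at 1.59, 0.805 and 1.12 CPM in V and 2.30 and 2.64 in AV. Just outside lay RSG07604, at 8.19, 9.56 and 10.3 CPM in V and 19.5 and 18.0 in AV (ratio 2.00, from 1.997 before rounding), and RSG35947, at 24.8, 18.1 and 26.4 CPM and then 47.7 and 44.1 (ratio 1.98). The limit on the AV level passed between RSG11869, whose AV mean with 0.1 added was 2.05 CPM, and RSG02866 at 1.94 CPM. The values on the inside and the outside of the limits were thus alike, and a further 23 genes met both ratios without reaching the AV level.

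The 112 genes were a small part of what moved at each step. Of the genes with an AV mean of at least 2 CPM, 2230 doubled or more in V and 2302 doubled or more in AV. A doubling in V that was followed by a change of less than 2-fold in AV was counted for 1456 genes, and a doubling in AV after a change of less than 2-fold in V for 1459. The mirrored rule, a halving or more at each step, found 229 genes.

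None of the 112 genes was lost to the filter on low counts, which the AV level asked for by the selection made nearly certain. All went into the same fit as all others, tested with the quasi-likelihood method of edgeR and adjusted over 32043 genes after Benjamini-Hochberg. A gene was called at an adjusted p under 0.05 and a log2 fold change of at least 1. By that criterion 109 members were called higher in V than in NV, beside 10.2% of all genes tested. For AV over V 100 members were called, beside 7.69%, and for AV over NV all 112, beside 8.92%. Calls at both steps were made for 98 members, beside 0.321% of all genes, and for 5 genes that are not members (RSG19926, RSG26580, RSG42373, RSG48467 and RSG51244). The AV means of these 5, with 0.1 added, were 1.01 to 1.47 CPM, below the level the selection asked for. These contrasts selected the members, so the counts say how the selection stood to the replicate error and nothing more. The median log2 fold changes were 1.60, 1.41 and 3.11 for the members and 0.01, -0.02 and 0 for all genes tested.

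The other 14 members were not called at both steps. RSG05021 and RSG11869 missed the adjusted p for V over NV, and 7 genes missed it for AV over V, among them RSG03530, RSG01082 and RSG40756. The rest had a log2 fold change slightly under 1 at a step after the trimmed-mean (TMM) scaling of the fit, as RSG06079 did for AV over V (0.97, SE 0.24). The median square root of the dispersion was 0.200 for the members and 0.183 for all genes tested. It estimates the coefficient of variation between replicates beyond counting error, which adds to it at low counts.

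The genes with names in the sources used here are the glucosinolate genes annotated in the study. Glucosinolates are sulfur-containing defence compounds of the mustard family, made from amino acids along an aliphatic and an indolic branch and broken down by myrosinases after damage. None of the 92 genes of that table analysed here was among the 112. An identifier put aside before the selection also belongs to the study's glucosinolate genes and is not among these 92. Of the 85 that could be tested, 20 rose and 28 fell from NV to V at an adjusted p under 0.05, and from V to AV 11 rose and 45 fell (quasi-likelihood test of edgeR, adjusted over all genes). By the same criterion 19.2% of all genes tested rose and 19.3% fell from NV to V, and 14.7% rose and 16.9% fell from V to AV, so that the rises in the table, in number, were near those over all genes. Falls at the second step were most frequent in the aliphatic branch, with 31 of 40 genes lower and 4 higher, beside 8 lower and 4 higher of 30 in the indolic branch. By adjusted p alone, 2 of the 85 genes rose at both steps, beside 1.2% of all genes tested. Both belong to the breakdown class, in which 5 of 15 genes rose and 8 fell in V, and 3 rose and 6 fell in AV.

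RsPEN2 (RSG16059) is a homolog of Arabidopsis PEN2, an atypical myrosinase that cleaves indolic glucosinolates in defence against fungi. It stood at 152, 153 and 173 CPM in NV, 210.3, 238 and 229 in V, and 424 and 414 in AV. The log2 fold changes were 0.47 (SE 0.15, adjusted p = 0.0213, edgeR) and 0.84 (SE 0.17, adjusted p = 0.00114, edgeR). The groups did not overlap, but the first call was lost without NV replicate 1 (adjusted p = 0.0865, edgeR), without NV replicate 2 (0.0512) and without V replicate 3 (0.0609).

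PEN3 is a plasma membrane transporter of the ABC family that acts with PEN2 in Arabidopsis, and the table lists 3 radish homologs. RsPEN3c (RSG05840) rose at both steps, from 124, 75.5 and 143 CPM in NV over 241, 185 and 211 in V to 349 and 482 in AV. Its log2 fold changes were 0.86 (SE 0.22, adjusted p = 0.00516, edgeR) and 0.91 (SE 0.24, adjusted p = 0.00768, edgeR), each just short of a doubling, and the second call was lost without AV replicate 2 (adjusted p = 0.132, edgeR). RsPEN3a (RSG17445) rose in V, from 105, 48.7 and 120.1 to 386, 297 and 356 CPM, by 1.88 (SE 0.28, adjusted p = 6.3e-05, edgeR). In AV it was at 408 and 668 CPM, a difference of 0.58 (SE 0.29) that did not pass the test (adjusted p = 0.152, edgeR), although it did without NV replicate 2 (adjusted p = 0.0272, edgeR) and with no filter on low counts (0.0156). RsPEN3b (RSG04372) was at 82.9, 72.3 and 86.8 CPM in NV and 95.8, 81.4 and 92.3 in V, a difference that did not pass the test (0.12, SE 0.16, adjusted p = 0.574, edgeR), and rose to 324 and 415 in AV by 1.98 (SE 0.17, adjusted p = 4.5e-07, edgeR). Whether the steps differ between the homologs was not tested. Reads of near-identical copies can be split between them, so that single homologs are uncertain.

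**Figure D5:**
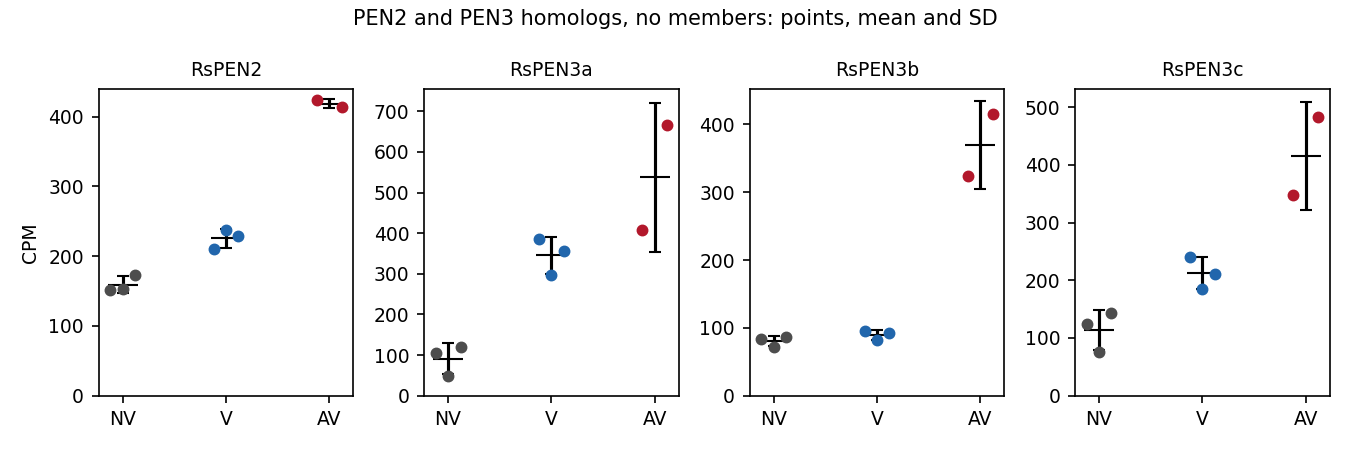
CPM (linear axis from 0) of the PEN2 homolog and the 3 PEN3 homologs in each library, as points with the mean and SD (NV n = 3, V n = 3, AV n = 2). RsPEN2 and RsPEN3c rose at both steps, RsPEN3a passed the test in V and RsPEN3b in AV.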

How the data were processed

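The deposited files hold raw read counts per gene, 1 file for each of 9 libraries (stranded mRNA kit, Illumina sequencing). According to the study's methods and the submitters' processing notes, the authors checked reads with FastQC, trimmed them, aligned them to a radish reference genome with TopHat2 and counted them with HTSeq. The genome build, counting strand and versions are not given in the sources used here. Rows that name no gene were left out of library sums (4.27% to 8.89% of counts in the libraries used).

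The members and lists were chosen with earlier results of these data known. CPM used library sums over genes. The fit used the 8 libraries without AV replicate 3 and group means (edgeR 4.0.16 in R 4.3.3, TMM, filterByExpr, robust glmQLFit, glmQLFTest), with DESeq2 1.42.0 as an alternative. It was also run on simulated counts with the same dispersion for every gene. The data do not have this property, so nothing is read from that run. SD covers 2 or 3 libraries a group. SE is the absolute log2 fold change divided by the square root of the F statistic. That fit estimated the spread over all 8 libraries and shared it between genes. The floor of 3 counts is a fixed divisor and covers no spread between replicates. Genes were named by rule: the 4 of highest AV mean; the 4 of largest AV over NV, 3 of largest V over NV and 3 of largest AV over V with an AV mean of at least 10 CPM; the 2 nearest either side of a ratio of 2; the 3 of widest spread within a group; any run of 3 or more consecutive identifiers (there was none); and glucosinolate genes higher at both steps. RSG02579, RSG32776, RSG23619, the other genes of 100 CPM or more, the genes at or under 3 counts, those that overlapped or missed a call, the 5 called outside the selection, those at the AV limit, RsPEN3a, RsPEN3b and the genes of neighbouring number were named after their values were seen. None of the RSG identifiers matched the radish RefSeq table (assembly ASM80110v3), so no sequences are shown. The alternatives were other scalings, filters, pseudocounts, limits, tests, AV replicate 3 kept or averaged, the replicate number as a block, and each library left out.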

Additional observations from a re-analysis of the deposited data

Results flagged for a closer look

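AV replicate 3 entered none of the comparisons. Its summed level of the 112 genes was 6580 CPM, above the 737 to 767 CPM of the NV libraries and next to the 6564 CPM of AV replicate 2. It adds no independent measurement, since the counts of both libraries were equal for all but 376 of 64657 genes and for all but 1 of the 112.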

How the results depend on the processing

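The number of genes that met the rule, 112, moved most with the rule's own limits: it was 60 with a pseudocount of 1 CPM, 25 with a ratio of 3 at each step and 493 with a ratio of 1.5. It was 100 after TMM scaling, 101 with DESeq2's size factors and 110 to 134 without each library in turn, and 63 of the 112 met the rule in each of these 8 leave-outs. Members called at both steps numbered 98, 95 with DESeq2, and 74 to 93 without each library. NV and V deviations of the same replicate number correlated at 0.05 to 0.23, and those of different numbers at -0.19 to 0.15. Whether the replicate numbers pair the samples is not settled by these values. A replicate block gave 83 members called at both steps. Over all genes it called 3315 higher for V over NV and 2397 for AV over V, beside 3283 and 2463 in the reported fit. Calls of all genes at both steps were not counted under the alternatives, so nothing is read about the members from these changes. Glucosinolate genes higher at both steps numbered 2, and 1 to 2 without each library (1 without NV replicate 1, V replicate 3 or AV replicate 2). No direction reversed in the 680 values of 40 single-gene results over 17 alternatives, and 644 stayed on their side of an adjusted p of 0.05 (25 lost and 11 gained it). Among the named members RSG18327 lost the call for AV over V under the block (adjusted p = 0.0602, edgeR), under DESeq2 (0.227) and without V replicate 1, V replicate 3 or either AV library. RSG57958 lost it under the block and without each V and AV library. Most of the 40 single-gene results were steps of members, whose direction the selection had fixed, so nothing is read from the lack of reversals. The 2 AV libraries and the low NV counts (48 members under 1 CPM) limit the precision.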

Other observations

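Identifier numbers of the members were examined as a description; gene positions were not used here, and neighbouring numbers are not known to be neighbouring genes. The pairs RSG06240 and RSG06241, and RSG13242 and RSG13243, carry consecutive numbers. RSG13242 rose from 2.96, 3.35 and 2.55 CPM in NV over 10.8, 9.47 and 9.40 in V to 55.6 and 65.0 in AV, whereas RSG13243 was far lower, at 2.00 and 3.27 CPM in AV. Of the 220 identifiers 1 number away from a member, 102 had an AV mean of at least 2 CPM. Among those, 20 (19.6%) doubled or more in V, beside 9.07% of the 24595 genes at that level, and 10 (9.80%) doubled or more in AV, beside 9.36%. Neither difference was tested.

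RSG15202 is numbered next to RsIGMT1a (RSG15203) and 2 numbers from RsIGMT2 (RSG15204), homologs of Arabidopsis methyltransferases of indolic glucosinolates. RSG15202 was at 12.1, 17.2 and 12.1 CPM in NV, 38.9, 42.7 and 44.9 in V, and 195 and 164 in AV. RsIGMT1a rose in V by 2.00 on the log2 scale (SE 0.26, adjusted p = 1.8e-05, edgeR) and differed by -0.14 (SE 0.26, adjusted p = 0.735, edgeR) between V and AV. RsIGMT2 rose by 1.54 (SE 0.24, adjusted p = 0.0001, edgeR) and then fell by 1.03 (SE 0.26, adjusted p = 0.00727, edgeR). All 3 were thus higher in V than in NV, RSG15202 by its selection, and from V to AV RSG15202 rose 4.26 times. Another member, RSG07723, is 3 numbers from RsCYP79F1 (RSG07720) of the aliphatic branch. RsCYP79F1 fell at both steps, with log2 fold changes of -1.01 (SE 0.17, adjusted p = 0.000255, edgeR) and -1.78 (SE 0.21, adjusted p = 8.5e-06, edgeR). No test of the difference between these genes was made.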
